A study of Rattus norvegicus with 62 samples.

Results

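A set of 9 interferon-induced genes is described here in rat heart: the chemokine genes Cxcl9, Cxcl10 and Cxcl11, the death ligand gene Tnfsf10 (TRAIL), the transcription factor genes Irf1 and Irf7, and the effector genes Gbp2, Mx1 and Isg15. They were chosen by name, with the late difference of Cxcl9 and Tnfsf10 at 80 mg/kg already known from these arrays, and followed through every probe set whose annotation gave exactly 1 gene, that gene being a member. This gave 9 of the 14217 genes named in this way, measured by 10 of 31042 probe sets. Cxcl9 had 2 probe sets and each other member 1, and all 10 were among the 18625 kept after the filter on low signals.

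The study asked how rosiglitazone, a glucose-lowering agonist of the nuclear receptor PPAR gamma, affects the heart. Male rats of the outbred Wistar strain gave cardiac muscle after oral vehicle (0 mg/kg), 10 mg/kg or 80 mg/kg daily for 14 days, at 6, 24, 168 and 336 h after the final treatment. From the earliest to the latest time, vehicle had 4, 6, 5 and 5 arrays. The lower dose had 5, 5, 5 and 6, and the higher dose 5, 5, 6 and 5, which makes 62 arrays. The labels give no age and do not say whether a sample held 1 animal.

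Interferons signal from their receptors through JAK kinases to the promoters of their target genes. Interferon gamma acts mainly through GAS elements, and type I interferons mainly through ISRE elements, which a complex that includes IRF9 binds. Cxcl9, Cxcl10 and Cxcl11 proteins attract activated T cells through the receptor CXCR3. TRAIL binds death receptors and can start apoptosis. IRF1 and IRF7 carry the response on, and Gbp2 encodes a guanylate binding protein, Mx1 a dynamin-like antiviral GTPase and Isg15 a ubiquitin-like modifier.

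The promoters of the 3 chemokine genes and of Tnfsf10 are shown because Cxcl9 and Tnfsf10 differed late at 80 mg/kg and Cxcl10 and Cxcl11 are the neighbours of Cxcl9. They are RefSeq sequences of GRCr8, with 250 bases before and 50 bases from the start used for the window, read along the gene's strand, which was + for all 4. That start is the first base of the RefSeq locus for 5 of the 8 members with a window, but lies inside the locus by 389 bases for Tnfsf10, 520 for Irf7 and 93 for Mx1. The Tnfsf10 window therefore lies wholly within its locus. Capitals mark matches to a GAS core (TTCNNNGAA) or an ISRE core (GAAANNGAA) on either strand. Cxcl11 lay at chr14:15973478-15973777, Cxcl10 at chr14:15988816-15989115, Cxcl9 at chr14:16006916-16007215 and Tnfsf10 at chr2:112136689-112136988.
Cxcl9: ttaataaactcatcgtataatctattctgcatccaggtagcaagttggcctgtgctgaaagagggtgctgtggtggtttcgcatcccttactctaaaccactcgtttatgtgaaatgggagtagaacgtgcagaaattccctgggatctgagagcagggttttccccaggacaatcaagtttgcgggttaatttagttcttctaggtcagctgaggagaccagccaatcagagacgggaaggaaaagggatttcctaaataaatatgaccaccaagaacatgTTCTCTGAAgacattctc
Cxcl10: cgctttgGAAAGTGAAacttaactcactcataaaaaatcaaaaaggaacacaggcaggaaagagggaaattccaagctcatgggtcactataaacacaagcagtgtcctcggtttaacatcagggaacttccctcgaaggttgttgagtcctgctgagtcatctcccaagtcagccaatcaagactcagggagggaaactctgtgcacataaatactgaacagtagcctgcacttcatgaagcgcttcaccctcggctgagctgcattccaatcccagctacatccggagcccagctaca
Cxcl11: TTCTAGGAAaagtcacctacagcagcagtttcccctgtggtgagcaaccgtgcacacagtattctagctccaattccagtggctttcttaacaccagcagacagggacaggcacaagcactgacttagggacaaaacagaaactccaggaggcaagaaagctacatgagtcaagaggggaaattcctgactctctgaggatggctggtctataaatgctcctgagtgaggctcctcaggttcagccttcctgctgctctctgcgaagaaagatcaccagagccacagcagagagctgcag
Tnfsf10: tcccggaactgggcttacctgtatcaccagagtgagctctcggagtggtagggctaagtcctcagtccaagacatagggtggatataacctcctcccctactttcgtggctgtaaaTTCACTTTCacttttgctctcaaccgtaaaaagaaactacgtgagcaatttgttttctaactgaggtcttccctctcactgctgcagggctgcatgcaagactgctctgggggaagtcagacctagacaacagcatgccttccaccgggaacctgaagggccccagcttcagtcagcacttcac

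Positions are counted from the start used for each window. The Cxcl9 window held a GAS core at bases 33 to 41 from the start, and the Cxcl11 window one 250 to 242 bases before it. The Cxcl10 window held an ISRE core 243 to 235 bases before the start, and the Tnfsf10 window one on the opposite strand, 134 to 126 bases before the start used for it, which is after the first base of the locus. Among the 8 members with a listed promoter, 3 (Cxcl9, Cxcl11 and Irf1) held a GAS core, against 8.87% of 33469 promoters of this length. An ISRE core was found in 4 (Cxcl10, Tnfsf10, Irf7 and Gbp2), against 9.71%. The NF-kB consensus was found in 3 (Cxcl10, Cxcl11 and Irf1), against 7.51%. No match overlapped a match to another of the 3 motifs. Cxcl9 and Tnfsf10 did not share any of the 3 searched motifs in these windows. The bases before the first base of the Tnfsf10 locus were not searched, and shared control of the genes was not tested. A match is a string of letters and not a measured binding site.

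Values below are log2 signals after quantile normalization, and each difference is one group mean minus another on that scale, with its standard error (SE). A probe set's level depends on its own probes, so levels are compared between groups and not between genes. In bulk tissue, fewer cells of a type and less RNA per cell cannot be told apart. The arrays fell into 3 clusters on the first 2 principal components, and all 16 arrays of 336 h lay in 1 cluster. The atrial gene Myl7 was over 9 in 10 arrays: 1 vehicle, 4 of 10 mg/kg and 2 of 80 mg/kg at 6 h, and 3 of 80 mg/kg at 24 h. The beta-actin signal at the 3' end exceeded that at the 5' end, as happens with broken RNA, by over 1.5 on the log2 scale in 1 vehicle array at 6 h and 2 vehicle arrays at 24 h. The 9 measured genes of the cardiac muscle list lay at a median percentile of 99.9 among probe sets.

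Cxcl9, a chemokine induced mainly by interferon gamma, was highest at 336 h after 80 mg/kg. The brighter of its probe sets, with a mean of 6.81 over all arrays, is called the first here, and the dimmer, with a mean of 6.10, the second. In the first, the 5 arrays at 80 mg/kg had 7.72, 8.05, 7.03, 7.76 and 7.25 at 336 h, and the 5 vehicle arrays 7.029, 6.60, 6.64, 6.16 and 6.70. Every array at 80 mg/kg was above every vehicle array, although the closest pair (7.03 and 7.029) nearly met. The group means were 7.56 ± 0.41 at 80 mg/kg and 6.63 ± 0.31 in vehicle (SD, n = 5 each), a difference of 0.93 (SE 0.23), or 1.91-fold.

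The second Cxcl9 probe set had 6.86, 7.27, 6.23, 6.93 and 7.08 at 80 mg/kg at 336 h, and 4.81, 5.77, 6.00, 5.52 and 6.07 in vehicle. Again no array of one group reached the other. The difference was 1.24 (SE 0.26), or 2.36-fold. Both probe sets therefore gave the same direction and order of groups at 336 h.

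Over all arrays, the Cxcl9 difference for 80 mg/kg was smaller at the earlier times and the groups overlapped. In the first probe set it was 0.49 at 6 h, 0.55 at 24 h and 0.60 at 168 h (SE 0.24, 0.22 and 0.22), and in the other 0.37, 0.57 and 0.63 (SE 0.27, 0.25 and 0.25). At 168 h all 6 arrays at 80 mg/kg lay above the vehicle mean in both probe sets. Without the high Myl7 arrays the 6 h differences were 0.18 and 0.13, and the 24 h differences 0.19 and 0.40. Without the high actin arrays the 24 h differences were 0.35 and 0.36. The part of atrial tissue and of RNA quality in the 6 and 24 h values was not tested.

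Tnfsf10 followed the same order of times with less spread between arrays. At 336 h its signal was 8.38, 8.70, 8.18, 8.26 and 7.86 at 80 mg/kg, and 7.21, 7.12, 6.96, 7.08 and 7.30 in vehicle. The lowest treated array was well above the highest vehicle array. The means were 8.28 ± 0.30 at 80 mg/kg and 7.13 ± 0.13 in vehicle (SD, n = 5 each), a difference of 1.14 (SE 0.16), or 2.21-fold.

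At 168 h Tnfsf10 ran from 7.94 through a median of 8.03 to 8.10 over the 6 arrays at 80 mg/kg, against 7.46, 7.52, 7.14, 7.42 and 7.32 in the 5 vehicle arrays. The groups did not overlap here either, and the difference was 0.65 (SE 0.16). At 24 h the 5 arrays at 80 mg/kg split widely, with 8.40, 8.06, 7.38, 8.35 and 7.45, against a lowest value of 6.94, a median of 7.24 and a highest value of 7.77 in 6 vehicle arrays. The arrays at 7.38 and 7.45 lay in the array cluster of the 336 h arrays, which held 0 vehicle arrays of 24 h. The difference over all arrays was 0.62 (SE 0.16), and 0.45 without the high Myl7 arrays. Within the other 2 clusters it was 1.285 (2 arrays at 80 mg/kg, 1 vehicle) and 0.97 (1 and 5). On the deposited scale all probe sets shifted by −0.30 at 24 h and −0.21 at 168 h. The difference over all arrays was there 0.31 (0.315) at 24 h and 0.43 at 168 h. At 6 h it was 0.18 (SE 0.17).

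**Figure D1:**
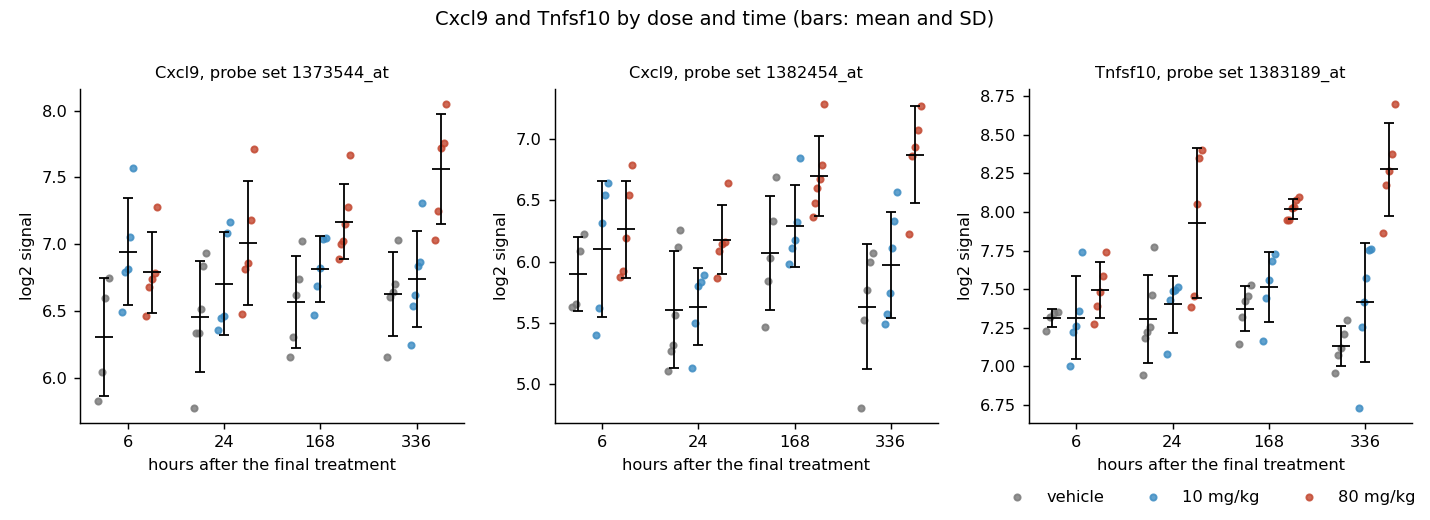
Log2 signal (vertical axis) of both Cxcl9 probe sets and of Tnfsf10 in each array, by hours after the final treatment (horizontal axis), with vehicle, 10 mg/kg and 80 mg/kg side by side and bars for the mean and SD. At 336 h all arrays at 80 mg/kg lie above all vehicle arrays in the 3 panels.

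At 24, 168 and 336 h the 3 probe sets lay nearer to vehicle at 10 mg/kg than at 80 mg/kg. At 6 h the first Cxcl9 probe set lay farther from it at 10 mg/kg. At 336 h Tnfsf10 had a lowest value of 6.73, a median of 7.50 and a highest of 7.76 in 6 arrays at 10 mg/kg, which overlapped vehicle, with a difference of 0.28 (SE 0.16). Cxcl9 differed from vehicle by 0.11 (SE 0.22) and 0.34 (SE 0.25) in its 2 probe sets. The direct differences of 80 from 10 mg/kg at 336 h were 0.82 and 0.90 for Cxcl9 and 0.86 for Tnfsf10. The 80 mg/kg arrays did not overlap the 10 mg/kg arrays for Tnfsf10, and did for both Cxcl9 probe sets.

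In the order of group means over all arrays, 80 mg/kg at 336 h was highest for both genes and 80 mg/kg at 168 h next. The lowest mean was vehicle at 6 h (6.30) for the first Cxcl9 probe set, vehicle at 24 h (5.61) for the other and vehicle at 336 h (7.13) for Tnfsf10. The range of means was 1.26, 1.27 and 1.14, against residual SDs of 0.37, 0.41 and 0.26. Most neighbours in the order below the top lay within 1 residual SD of each other. This also held at the top, between 336 and 168 h, for the second Cxcl9 probe set (6.87 and 6.70) and Tnfsf10 (8.28 and 8.02). In the first Cxcl9 probe set the means at the top were 7.56 and 7.17. Differences between times at 80 mg/kg were not tested. Time was not separate from array cluster, since all arrays of 336 h lay in 1 cluster. At 168 h that cluster held 1 array at 80 mg/kg and 1 vehicle array. Between these arrays the difference was 1.05 and 1.45 for Cxcl9 and 0.89 for Tnfsf10. At 336 h it was 0.93, 1.24 and 1.14, so in this cluster only Tnfsf10 was smaller at 168 h. Single arrays cannot settle the order of times.

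Cxcl10 and Cxcl11 stand beside Cxcl9 in GRCr8 with no other listed gene between them. Cxcl10 had 5.78, 5.05, 5.38, 6.07 and 4.70 at 80 mg/kg at 336 h, against 5.35, 4.99, 5.46, 4.42 and 5.82 in vehicle, and the groups overlapped throughout. Its difference was 0.19 with an interval from −0.67 to 1.05, which includes the 0.93 of the first Cxcl9 probe set. Cxcl10 was the dimmest member, with 18 of 62 arrays below the filter level. Cxcl11 had 8.93, 9.16, 8.39, 8.67 and 9.29 at 80 mg/kg at 336 h, against 8.88, 9.15, 9.001, 8.99 and 9.25 in vehicle, with the groups overlapping. Its difference was −0.17 with an interval from −0.67 to 0.33, which does not reach the 0.93 and 1.24 of Cxcl9.

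The transcription factor genes lay within their spread of vehicle at 336 h. Irf1 differed by 0.10 (SE 0.16) and Irf7 by −0.15 (SE 0.19) at 80 mg/kg. Irf1 was above vehicle at all 4 times at 80 mg/kg, by 0.39, 0.29, 0.33 and 0.10. The 6 h value was 0.13 (0.126) without vehicle replicate 6 and 0.10 (0.096) without the high Myl7 arrays, and the 24 h value was −0.04 on the deposited scale. Irf7 at 80 mg/kg differed from vehicle by 0.04, 0.445 (SE 0.185), 0.16 and −0.15 at the 4 times. Its 24 h value was 0.11 on the deposited scale. Irf7 reached its highest mean not at 80 mg/kg but at 10 mg/kg at 336 h, at 8.57 ± 0.57 (SD, n = 6), where 1 array lay at 9.51.

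The effector genes lay close to vehicle in their means at 80 mg/kg at 336 h. Gbp2 differed by 0.05 (interval −0.26 to 0.36) and Mx1 by 0.12 (interval −0.51 to 0.76). Isg15 differed by 0.07, but its interval from −1.05 to 1.19 covers the differences of Cxcl9 and Tnfsf10. At 24 h the differences at 80 mg/kg were 0.40 (SE 0.15) for Gbp2, 0.74 (SE 0.30) for Mx1 and 1.15 (SE 0.53) for Isg15. The Gbp2 value was 0.15 without the high Myl7 arrays and 0.08 on the deposited scale. Isg15 was the most variable member, with a residual SD of 0.90, higher than that of 97.2% of probe sets. Vehicle at 24 h had the lowest mean of all 12 groups for Gbp2, Mx1, Isg15 and Irf7, and both doses were compared with it.

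**Figure D2:**
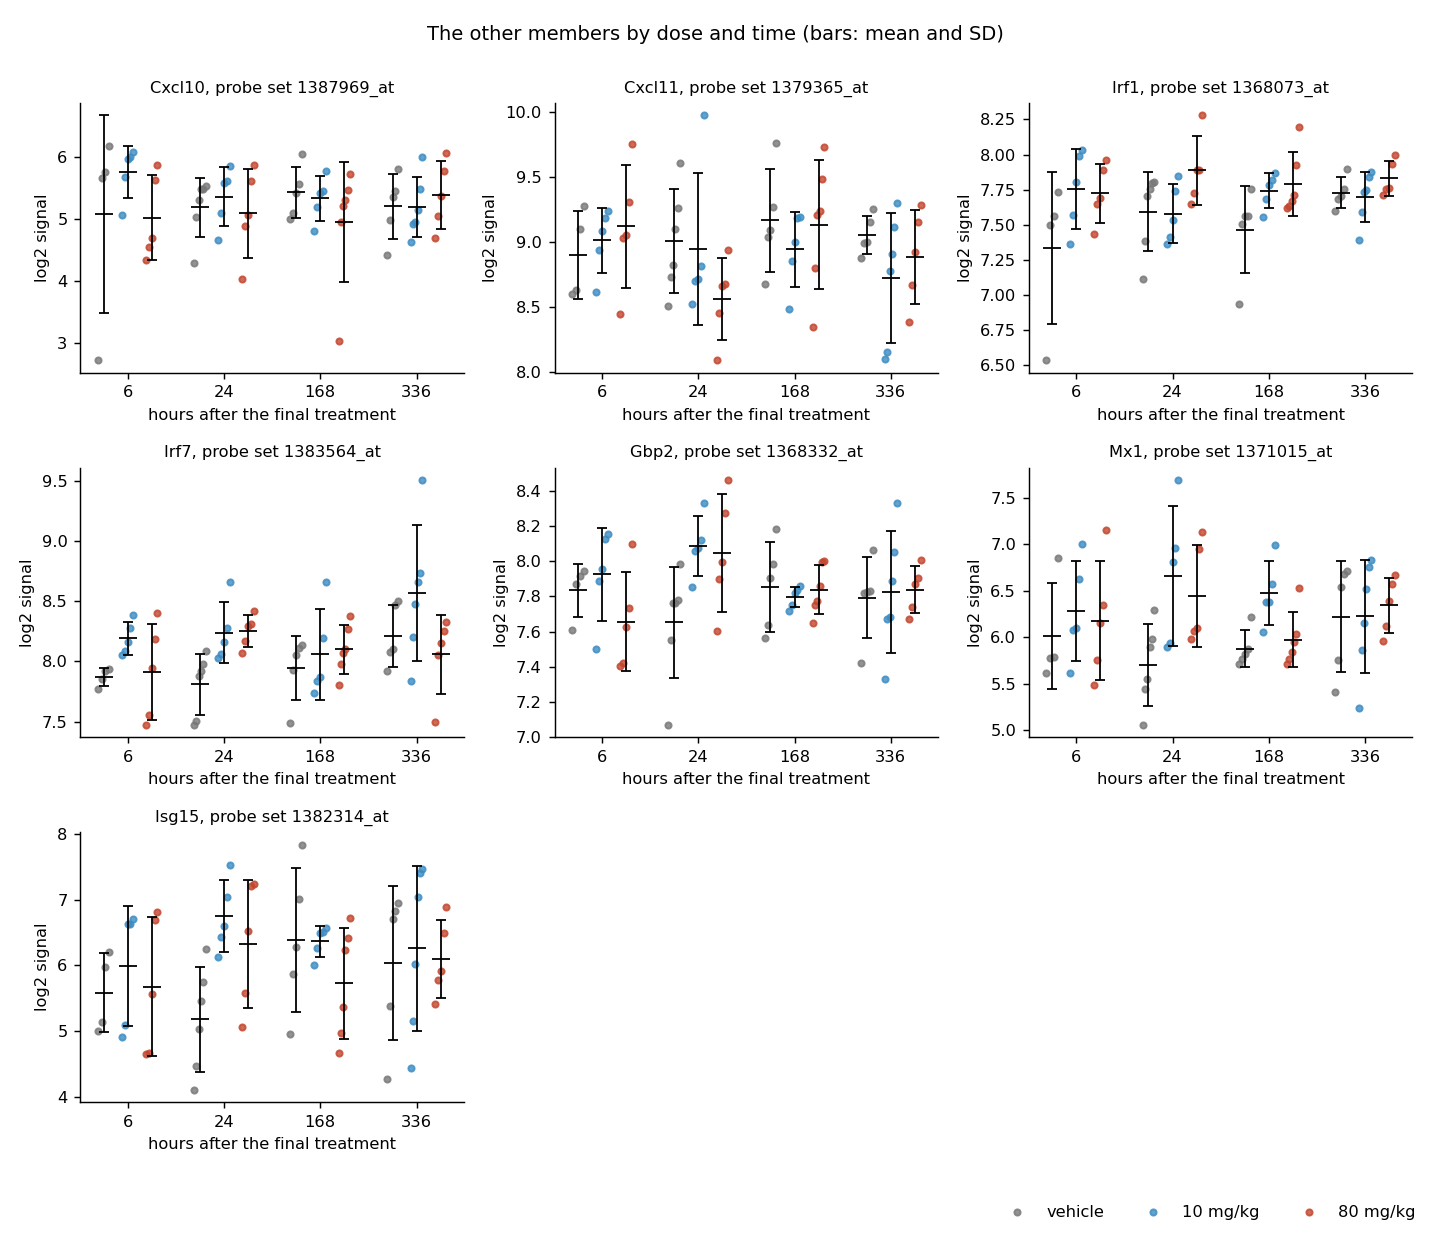
Log2 signal (vertical axis) of the 7 other members in each array by hours after the final treatment (horizontal axis), with vehicle, 10 mg/kg and 80 mg/kg side by side and bars for the mean and SD. At 336 h the 3 groups overlap in every panel, and at 24 h vehicle lies lowest for Irf7, Gbp2, Mx1 and Isg15.

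Because the members were chosen on the difference of 80 mg/kg from vehicle, these values carry no test. For description, 2 of the 10 probe sets (the second of Cxcl9, and Tnfsf10) passed the limma call at 336 h, where 0.29% of all kept probe sets did, and 0 passed at 6, 24 and 168 h, where 0.0537%, 0.14% and 0.0537% did. Nothing is read from these counts. Arrays at 80 mg/kg lay wholly above vehicle for 0, 0, 1 and 3 member probe sets at 6, 24, 168 and 336 h, against 0.918%, 0.387%, 0.301% and 1.28% of all kept probe sets.

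The comparison of 10 mg/kg with vehicle was not used to choose the members, although it shares the vehicle arrays. No member passed the limma test at any of the 4 times, and 0% of all kept probe sets did at 6, 24, 168 and 336 h. The smallest adjusted p among members was 0.674 at 6 h and 0.696 at 24 h, and 0.9997 at 168 and 336 h. At an unadjusted p under 0.05 there were 2 of 10 member probe sets at 6 h, 4 at 24 h, and 0 at 168 and 336 h, against 6.42%, 5.84%, 3.86% and 3.63% of all kept probe sets.

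At 24 h those 4 were interferon effector genes and Irf7. Isg15 had 6.44, 6.12, 7.05, 7.53 and 6.60 at 10 mg/kg, against a lowest value of 4.11, a median of 5.25 and a highest of 6.25 in 6 vehicle arrays. Of the 5 treated arrays, 4 lay above all vehicle arrays, and the difference was 1.57 (SE 0.53, limma adjusted p 0.711). Mx1 had 6.81, 5.89, 5.93, 7.69 and 6.96 at 10 mg/kg, against a lowest of 5.05, a median of 5.72 and a highest of 6.29 in vehicle, a difference of 0.96 (SE 0.30, limma adjusted p 0.696). Gbp2 differed by 0.44 (SE 0.15, limma adjusted p 0.711) and Irf7 by 0.43 (SE 0.19, limma adjusted p 0.848). On the deposited scale, where all probe sets together shifted by −0.36, Gbp2 differed by 0.06 and Irf7 by 0.04. Without the 2 high actin vehicle arrays the 4 differences were 1.66, 0.94, 0.44 and 0.48, in the order Isg15, Mx1, Gbp2 and Irf7.

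At 6 h all 10 member probe sets had a positive difference at 10 mg/kg, from 0.003 upward with a median of 0.30. Over all kept probe sets 48.75% were positive, with a median of −0.01. The 2 with an unadjusted p under 0.05 were the first Cxcl9 probe set at 0.64 (SE 0.24, limma adjusted p 0.674) and Irf1 at 0.42 (SE 0.17, limma adjusted p 0.685). The second Cxcl9 probe set differed by 0.205 (SE 0.27, limma adjusted p 0.918). High Myl7 marked 4 of the 5 arrays at 10 mg/kg and 1 of 4 vehicle arrays at this time. Without the high Myl7 arrays, which left 1 array at 10 mg/kg, the first Cxcl9 probe set differed by 0.03 and Irf1 by −0.03. Without vehicle replicate 6 alone, Irf1 differed by 0.16 (0.155 before rounding) and Cxcl10 by −0.11, against 0.68 with it.

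**Figure D3:**
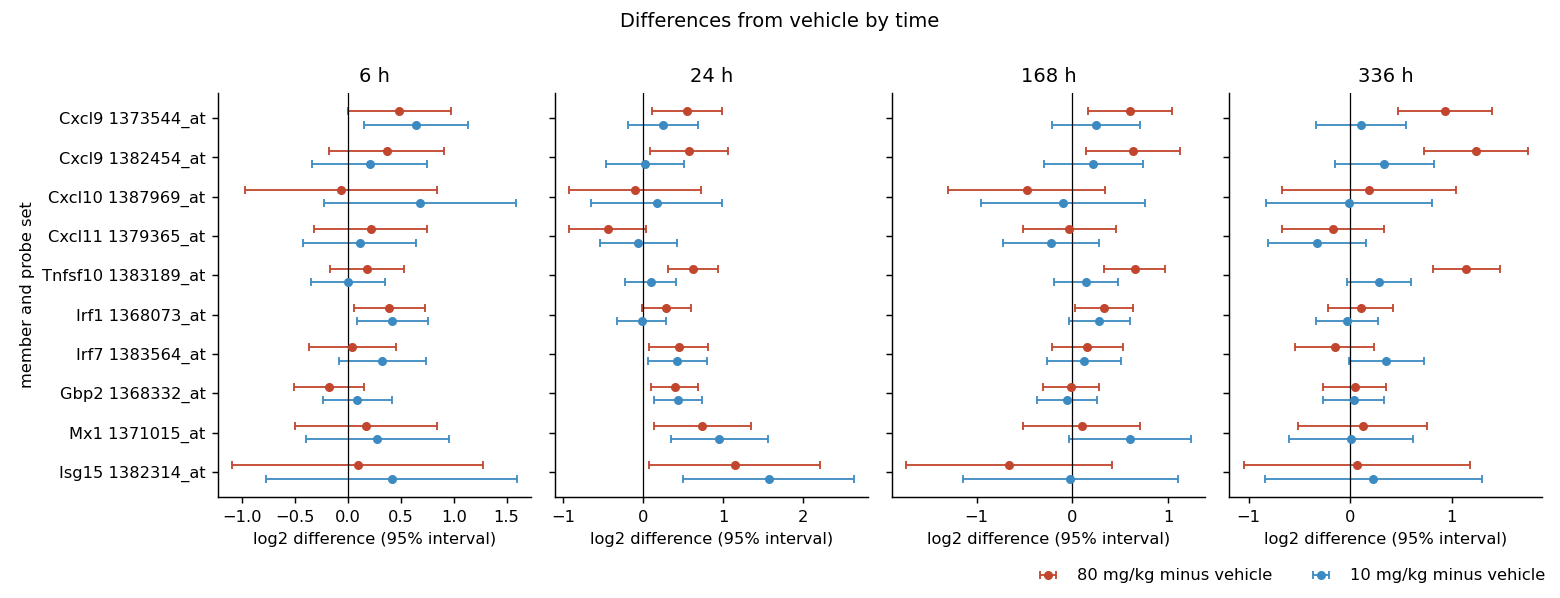
Log2 difference from vehicle (horizontal axis) of each member probe set (vertical axis) at 6, 24, 168 and 336 h, for 80 mg/kg and 10 mg/kg, with bars for the 95% interval of the fit. At 336 h the 80 mg/kg values of Cxcl9 and Tnfsf10 lie at 0.93, 1.24 and 1.14, and those of the other members between −0.17 and 0.19.

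Without drug the members did not pass a test for movement over sampling time. The moderated F test of the 4 vehicle groups called 0 of 10 member probe sets, against 8.05% of all kept probe sets, with limma adjusted p from 0.305 for Irf1 upward. Among the 4 groups at 10 mg/kg it called 0 of 10, against 7.17%, and the smallest limma adjusted p was 0.224 for Irf7. The effect of 10 mg/kg did not pass a test of difference between times for any member (limma adjusted p 0.984 and above).

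Some pairs of member probe sets varied together between the arrays of a group. Over the deviations of the 62 arrays from their group means, 45 pairs of member probe sets were compared, and Pearson's r ran from −0.12 to 0.50. Of these, 6 pairs passed a permutation test within groups adjusted over the 45 pairs, and all 6 were positive. Pairs of other probe sets were not compared, so no share over all pairs stands beside this count. Nothing particular to the members is read from it. Irf7 and Gbp2 had r 0.50 (permutation p 2.3e-04, adjusted 0.0103) and rho 0.38 (permutation p 0.00567). Without the 2 arrays farthest from the Irf7 median, whatever their Gbp2 values, r was 0.37. Tnfsf10 and Gbp2 had r 0.50 (permutation p 0.00153, adjusted 0.0317) and rho 0.41 (permutation p 0.00531). Without the 2 arrays farthest from the Tnfsf10 median, r was 0.43. Within the 3 array clusters this pair had r of 0.14, 0.54 and 0.64.

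The other 4 pairs were Gbp2 with Mx1 (r 0.43), Irf7 with Mx1 (0.39), Irf1 with Irf7 (0.33) and Cxcl10 with Irf7 (0.32). Gbp2 with Mx1 did not pass on ranks (rho 0.35, permutation p 0.0115, adjusted 0.0645). Within 1 of the 3 array clusters r was 0.04 for Gbp2 with Mx1, 0.06 for Irf7 with Mx1 and 0.07 for Cxcl10 with Irf7. The 2 Cxcl9 probe sets, which measure 1 gene, had r 0.36 (permutation p 0.0091, adjusted 0.0585) and rho 0.39 (permutation p 0.00505, adjusted 0.0425). Cxcl9 and Tnfsf10 did not pass in either probe set, with r of 0.16 and 0.13. Their likeness across all 62 arrays, r 0.56, thus includes the differences between group means.

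**Figure D4:**
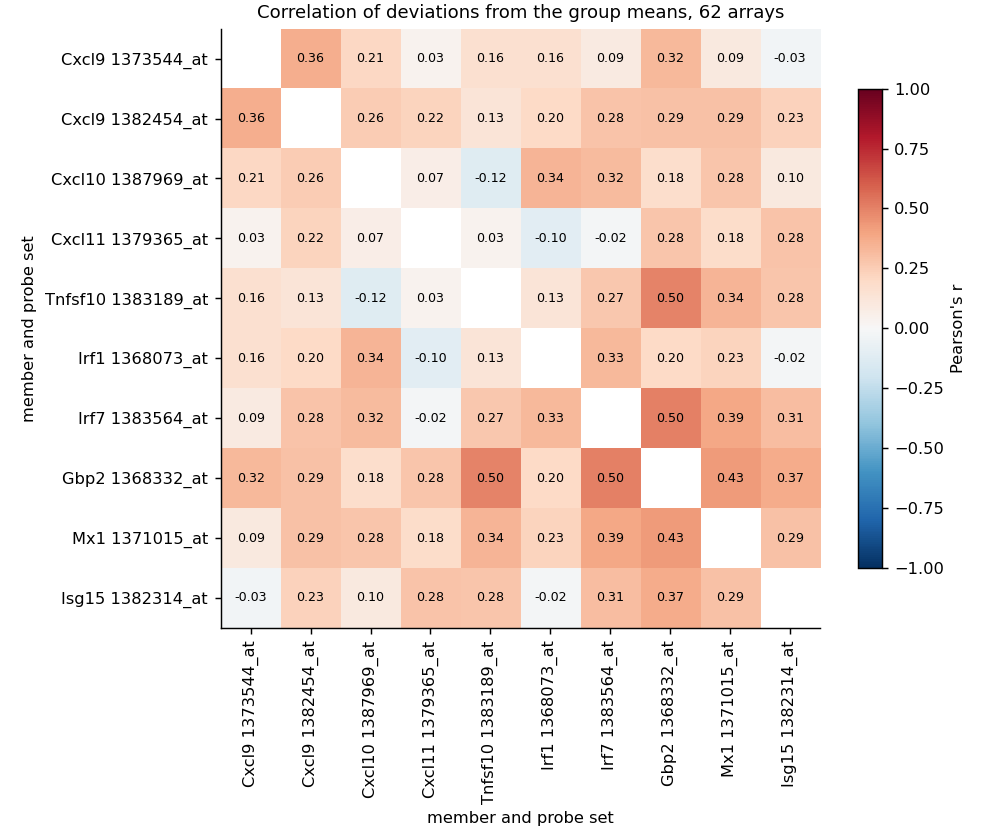
Pearson's r between member probe sets (both axes) over the deviations of 62 arrays from their group means, in colour and as numbers. The highest values, 0.50, join Gbp2 with Tnfsf10 and with Irf7, while Cxcl9 and Tnfsf10 lie at 0.16 and 0.13.

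As a description over the 62 arrays, the genes most like Cxcl9 (first probe set) among 10556 were F2r (r 0.65), Rbp7 (0.625), Gpihbp1 (0.62), Plpp1 (0.60) and Mgll (0.60). Those most like Tnfsf10 were Tmcc3 (r 0.77), Plpp1 (0.73), Rbp7 (0.70), F2r (0.69) and Gpihbp1 (0.69). F2r encodes a thrombin receptor, Rbp7 a retinol binding protein, Gpihbp1 the capillary anchor of lipoprotein lipase and Mgll monoglyceride lipase. Of the other members, Tnfsf10 ranked 9 among the genes most like Cxcl9, Irf1 60, Gbp2 251 and Mx1 975. Cxcl10 ranked 1335, Irf7 1505, Isg15 3783 and Cxcl11 5602. After group means were taken out, r fell to 0.14 between Cxcl9 and Gpihbp1 and to 0.10 between Tnfsf10 and Gpihbp1, but was 0.58 between Tnfsf10 and Tmcc3 and 0.44 between Cxcl9 and F2r.

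Rbp7 and Gpihbp1 were higher at 80 mg/kg than in vehicle at every time, by 2.93, 2.95, 3.76 and 4.10 for Rbp7 and 1.48, 1.70, 2.42 and 2.62 for Gpihbp1 at 6, 24, 168 and 336 h. F2r showed 0.06, 0.22, 0.34 and 0.76 at these times. These comparisons share the arrays on which Cxcl9 and Tnfsf10 were chosen.

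Few calls were made over all genes, and none among the other genes of the pathways. At 80 mg/kg 0.0537%, 0.14%, 0.0537% and 0.29% of all kept probe sets were called at the 4 times, and at 10 mg/kg 0%, so counts of 0 in short lists say little. Of 26 measured genes of interferon gamma signalling and antigen presentation, 0 were called in either direction at any time at either dose, and Ifng itself was below the filter level. At 80 mg/kg at 336 h 20 of the 26 were positive, with a median of 0.12 against −0.01 over all kept probe sets. Of 36 measured genes of the type I interferon response 0 were called, and at 80 mg/kg at 336 h the median was 0.02. Of 22 chemokine and TRAIL partners 0 were called, with 17 positive and a median of 0.13 at that point. Of all kept probe sets 48.9% were positive. The summed linear signal of these partners ran from 5423 to 6622 at 80 mg/kg and from 5108 to 5376 in vehicle. Cxcr3, the receptor of the 3 chemokines, differed by 0.02 (SE 0.22) there. The decoy receptor gene Tnfrsf11b was below the filter level, and Dpp4, a peptidase that trims chemokines, differed by −0.58 (SE 0.15, limma adjusted p 0.0736). Dpp4 passed under some other settings, with a limma adjusted p of 0.0404 where array clusters were a block.

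At 24 h 28 of the 36 type I genes were positive at 80 mg/kg and likewise at 10 mg/kg, with medians of 0.20 and 0.24, against −0.02 and −0.01 over all kept probe sets, of which 45.6% and 47.2% were positive. On the deposited scale the list medians turned to −0.09 at 80 mg/kg and −0.12 at 10 mg/kg, where all probe sets shifted by −0.30 and −0.36. Both doses share the 6 vehicle arrays of that time. The gene with the smallest p was Irf9, a subunit of the complex that binds ISRE elements, at 0.44 (limma adjusted p 0.108) for 80 mg/kg and 0.51 (limma adjusted p 0.411) for 10 mg/kg.

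Among markers of T cells, which carry CXCR3 when activated, 1 of 10 passed the test where Cxcl9 was highest, against 0.29% of all kept probe sets. At 80 mg/kg at 336 h 2 of the 10 measured T cell genes were positive and the median was −0.28. Their summed linear signal ran from 598 to 721 at 80 mg/kg and from 682 to 813 in vehicle. Lck, a T cell kinase, passed the test (0.51, SE 0.11, limma adjusted p 0.0193), while Cd3e differed by −0.67 (SE 0.22, limma adjusted p 0.318). Cd3d, Cd8a and Cd8b were below the filter level, as were 9 of 12 NK and cytotoxic genes. Of 9 endothelial genes 1 was called at 336 h, against the same 0.29%: Kdr, a VEGF receptor (0.48, SE 0.09, limma adjusted p 0.00401), and 4 were positive. Macrophage genes had a median of 0.21 with 7 of 10 positive and 0 called. The summed macrophage signal ran from 2178 to 2533 at 80 mg/kg and from 1868 to 2536 in vehicle. The summed signal of 6 atrial muscle genes ran from 1536 through a median of 3479 to 4750 at 80 mg/kg, and from 917 through 1405 to 2167 in vehicle. Of these genes 4 of 6 were positive, with a median of 0.35, and 0 were called. No array of 336 h had high Myl7. The summed signal of 9 cardiac muscle genes ran from 102300 to 103900 at 80 mg/kg and from 105000 to 106400 in vehicle. Of these genes 2 were positive, with a median of −0.015, and 0 were called. The summed endothelial signal ran from 4487 through a median of 5229 to 5552 at 80 mg/kg, and from 4528 through 4722 to 4924 in vehicle. The part of these cells and of atrial tissue in the 336 h Cxcl9 and Tnfsf10 values was not tested.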

How the data were processed

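The 62 samples were measured on 1 Affymetrix rat array each. The authors deposited linear intensity values, made with GCOS and MAS5 according to their listing per the submitters' processing notes; versions are not given in the sources used here. The arrays did not share a scale: the 2% trimmed mean of the deposited intensity ran from 82.9 to 246. Control probe sets (57) were left out, signals were taken to log2 and quantile normalized, and 18625 of 31042 probe sets with a mean log2 signal at or above the 40th percentile (5.03) were kept. Each difference is thus relative to all other probe sets.

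Gene names came from the platform annotation, and only probe sets with exactly 1 gene were named. The means of all 12 groups entered 1 limma model (version 3.58.1, R 4.3.3, 50 residual degrees of freedom), p-values were two-sided and adjusted by Benjamini-Hochberg over all kept probe sets, and a call needed an adjusted p under 0.05. The procedure was tested on simulated data. Whether samples are separate animals is not labelled, so p-values reflect only the variation among these samples, which may be technical. Samples were not treated as paired by replicate number. The correlation of deviations was above 0.1 in 10 of 34 same-numbered pairs, and in every such pair for 0 of 8 dose comparisons. A weak pairing could fail this rule, so it does not show that pairing was absent.

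The members and gene lists were chosen with earlier results of these data known. Members, called genes of the 3 pathway lists, and the 5 genes most like Cxcl9 and like Tnfsf10 over the arrays are named, and cell type genes where a value stands beside a result. Alternatives were the deposited scale, median scaling, no filter, array weights, a block for the replicate number or for array clusters, omission of arrays high in Myl7 (a log2 signal over 9) or in the beta-actin 3' to 5' difference, each time alone, the mean of a gene's probe sets, and each array left out in turn. The alternatives named no thresholds for these 2 exclusions. The actin threshold was set at 1.5 after the values were seen, since a first value of 3 marked 0 arrays. It lies between 1.45 and 1.68, the highest unmarked and the lowest marked array. The Myl7 threshold was likewise set knowing that the arrays lay at or below 8.71 or at or above 9.32. Correlations and motif searches used Python 3.11.15 with scipy 1.17.1, and promoters came from RefSeq (GRCr8).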

Additional observations from a re-analysis of the deposited data

Results flagged for a closer look

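In 120 groups of arrays (10 member probe sets in 12 groups), 5 held an array far from the others by Dixon's criterion, which chance gives in about 1 of 20 groups. Cxcl10 lay at 2.72 in vehicle replicate 6 at 6 h, against 5.67 to 6.18 in the others, and at 3.04 in 80 mg/kg replicate 6 at 168 h, against 4.96 to 5.73. Mx1 lay at 6.86 in vehicle replicate 5 at 6 h, against 5.61 to 5.79. Cxcl11 lay at 9.97 in 10 mg/kg replicate 5 at 24 h, against 8.53 to 8.82, and Tnfsf10 at 7.08 in 10 mg/kg replicate 3 at 24 h, against 7.43 to 7.52. Vehicle replicate 6 at 6 h was also the vehicle array with high Myl7.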

How the results depend on the processing

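Cxcl9 and Tnfsf10 at 80 mg/kg against vehicle at 336 h stayed between 0.93 and 0.96, 1.24 and 1.30, and 1.13 and 1.20 (both Cxcl9 probe sets, then Tnfsf10) under 9 alternatives each, and between 0.81 and 1.07, 1.03 and 1.40, and 1.04 and 1.25 with 1 array left out. With the replicate number as a block they were 0.93, 1.30 and 1.13, and no other call changed under the block. On the deposited scale Tnfsf10 at 168 h moved to 0.43, where all probe sets shifted by −0.21, and the first Cxcl9 probe set at 10 mg/kg reversed to −0.04 at 24 h and −0.01 (−0.009) at 168 h. Without the high Myl7 arrays Cxcl10 and Irf1 at 10 mg/kg at 6 h reversed to −0.81 and −0.029, and Cxcl10 ran from −0.11 to 1.04 (1.045) with 1 array left out. No member was called at 10 mg/kg under any alternative. On the deposited scale 1 member, Irf7, was called between the 4 times at 10 mg/kg (limma adjusted p 0.0447).

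List counts of 0 became 1 in some settings. Dpp4 was called lower at 80 mg/kg at 336 h with a block for array clusters, with the mean of a gene's probe sets and with weighted arrays, and the count ran from 0 to 1 with 1 array left out (without vehicle replicate 5 or 80 mg/kg replicate 3). Socs1 was called lower at 80 mg/kg at 336 h with array weights (−1.61). Ifitm2 was called lower at 80 mg/kg at 24 h with median scaling (−0.57), where the median over all probe sets was −0.17. The genes in these calls were named after their values were seen, and the causes were not tested. Groups of 4 to 6 arrays limit the precision, and Cxcl10 and Isg15 were below the filter level in 18 and 11 arrays.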
